A study of Mus musculus with 36 samples.

Results

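The transcriptomes of mouse cortical neurons stimulated for 1 h with BDNF (brain-derived neurotrophic factor, a secreted ligand of the TrkB receptor) or with KCl, which depolarises the membrane, were compared directly. The comparison rests on 4 RNA-seq libraries, 2 per stimulus, chosen by their labels out of 36 samples in the series, of which 18 are RNA. All neurons came from CD-1 embryos at embryonic day 15. Cortices were dissociated and the cells kept for 7 days in vitro, so the samples are cultures of mixed cortical cells and not single animals. Every culture was made quiescent over 2 h by AP-5 at 100 µM, which blocks NMDA receptors, together with TTX at 1 µM, which blocks sodium channels. The BDNF group then received 10 ng/ml BDNF and the KCl group 55 mM KCl. Unstimulated controls remained in AP-5 and TTX, for 3 h in the group matched to 1 h, and for 8 and 12 h in the groups matched to the 6 and 10 h libraries. KCl was given in a salt buffer added to the medium. No matching buffer is described for the BDNF and control groups, so effects of the depolarisation and of the buffer cannot be told apart. The 6 controls served as 1 reference.

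BDNF activates the TrkB receptor tyrosine kinase, which signals through the Ras and MAP kinase cascade, phosphoinositide 3-kinase and phospholipase C. Depolarisation opens voltage-gated calcium channels, and calcium acts through CaM kinases and calcineurin on factors such as CREB and MEF2. Both routes induce immediate early genes within minutes, with no need for new protein, and these genes include transcription factors (Fos, Egr and Nr4a families, Npas4) and synaptic effectors (Arc, Homer1, Nptx2).

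Depth was 8508452 and 17058879 reads in the BDNF libraries and 10551991 and 11909622 in the KCl libraries, within a range of 8508452 to 36699187 over the 18 RNA libraries. Levels are read counts divided by the library's size factor (normalised read counts). Differences are on the log2 scale of normalised read count + 1, where 1 corresponds to a 2-fold difference, and were called at a Benjamini-Hochberg adjusted p below 0.1 in limma. RNA libraries are called A and B after the columns of the table. The median absolute difference between both libraries across genes was 0.10 for BDNF and 0.15 for KCl. Levels of different genes are not compared, because the values are not scaled to transcript length. Summed neuron and astrocyte markers overlapped between both groups, and the other cell types are described further on. Neuron markers summed to 73368 to 74128 normalised read counts with BDNF, 67963 to 75946 with KCl and 61137 to 68524 in controls. Members of the neuron list moved both ways, 6 of 13 higher with BDNF (46.2%) and 4 with KCl (30.8%). The shares of all genes tested were 24.6% and 18.2%. The neurofilament genes Nefm (1.99) and Nefl (1.08) led the BDNF side, and Rbfox3 (-0.37) was among the 4 higher with KCl.

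At 1 h, 6936 of 16209 genes differed between BDNF and KCl (42.8%). Of these, 3986 were higher with BDNF (24.6% of the genes tested) and 2950 higher with KCl (18.2%). Most differences were small, with a median absolute value of 0.53 among called genes, and 80.5% of called genes differed by less than 2-fold. A difference of at least 2-fold was called for 900 genes higher with BDNF (5.55%) and 451 higher with KCl (2.78%). At 4-fold or more, 138 genes were higher with BDNF and 95 with KCl. Both libraries of one stimulus lay outside those of the other in 69.7% of all genes tested, and 32 called genes had libraries that overlapped. The median difference over all genes was 0.01.

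The 2 sets were built differently relative to the controls. Against controls, BDNF raised 3459 genes (21.3%) and lowered 3087 (19%), whereas KCl raised 4298 (26.5%) and lowered 4565 (28.2%). Of the 900 genes at least 2-fold higher with BDNF, 414 were above controls with BDNF and 700 were below controls with KCl. In 352 of them the BDNF libraries did not differ from controls and the KCl libraries were lower, and in 223 BDNF was above and KCl below controls. Their median difference from controls was 0.29 with BDNF and -1.06 with KCl. Of the 451 genes at least 2-fold higher with KCl, 361 were above controls with KCl and 141 below controls with BDNF. Their median difference from controls was -0.21 with BDNF and 1.25 with KCl. These values use the same controls and the same 4 libraries as the direct comparison, and describe it without adding support to it. In bulk RNA, fewer cells of a type and less RNA per cell cannot be told apart.

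Transcription factor families are described first. Promoter windows of 5 genes are shown, as RefSeq gives them for GRCm38.p6 (250 bases before to 50 after a transcription start). The EGR and NR4A classes had the most extreme medians, and Dusp5 was among the 10 largest differences on the BDNF side. The 5 genes were picked as examples. Windows of the other EGR and NAB members and of other genes with large differences are not shown, so these windows do not represent either side. Egr2 and Dusp5 were higher with BDNF, and the 3 NR4A genes higher with KCl. Capitals mark CRE half-sites (TGACG or its reverse complement CGTCA, the core of the element bound by CREB) and CArG boxes, the element bound by serum response factor (SRF). The windows are Egr2, chr10:67537619-67537918 (+ strand); Dusp5, chr19:53528895-53529194 (+ strand); Nr4a1, chr15:101266596-101266895 (+ strand); Nr4a2, chr2:57123954-57124253 (- strand) and Nr4a3, chr4:48045055-48045354 (+ strand), each printed 5′ to 3′ on the strand of the gene.
Egr2: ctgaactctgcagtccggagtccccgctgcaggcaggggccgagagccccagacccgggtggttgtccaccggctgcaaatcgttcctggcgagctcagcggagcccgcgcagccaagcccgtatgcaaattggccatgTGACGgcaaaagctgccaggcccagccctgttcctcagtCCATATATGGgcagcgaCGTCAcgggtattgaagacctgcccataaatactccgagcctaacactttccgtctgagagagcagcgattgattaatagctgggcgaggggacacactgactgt
Dusp5: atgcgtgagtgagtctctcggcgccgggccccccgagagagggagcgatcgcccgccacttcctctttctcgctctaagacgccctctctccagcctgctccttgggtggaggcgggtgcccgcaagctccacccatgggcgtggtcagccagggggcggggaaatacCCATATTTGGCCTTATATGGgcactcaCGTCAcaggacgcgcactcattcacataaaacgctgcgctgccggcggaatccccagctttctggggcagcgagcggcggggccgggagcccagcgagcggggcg
Nr4a1: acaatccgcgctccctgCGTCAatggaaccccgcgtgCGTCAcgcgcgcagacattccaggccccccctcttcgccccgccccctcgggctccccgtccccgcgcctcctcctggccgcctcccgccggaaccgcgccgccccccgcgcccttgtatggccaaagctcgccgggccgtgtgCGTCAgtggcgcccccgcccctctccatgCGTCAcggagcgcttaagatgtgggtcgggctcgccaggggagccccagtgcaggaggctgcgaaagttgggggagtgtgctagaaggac
Nr4a2: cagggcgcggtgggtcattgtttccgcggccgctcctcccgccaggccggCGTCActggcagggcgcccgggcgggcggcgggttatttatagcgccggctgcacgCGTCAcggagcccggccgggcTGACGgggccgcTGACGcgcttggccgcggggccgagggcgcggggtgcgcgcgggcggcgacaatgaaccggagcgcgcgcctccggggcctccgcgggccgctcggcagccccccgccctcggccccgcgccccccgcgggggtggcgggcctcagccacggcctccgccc
Nr4a3: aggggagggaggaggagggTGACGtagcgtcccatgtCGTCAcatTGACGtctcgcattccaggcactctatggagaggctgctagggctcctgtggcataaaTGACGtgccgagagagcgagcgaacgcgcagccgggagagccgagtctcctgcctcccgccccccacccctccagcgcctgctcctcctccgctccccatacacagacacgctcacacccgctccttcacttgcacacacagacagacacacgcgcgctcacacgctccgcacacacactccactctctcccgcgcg

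The Egr2 window held 1 CArG box and 2 CRE half-sites, and the Dusp5 window 2 adjoining CArG boxes and 1 half-site. For Egr2, the window printed was the first by position to hold both motifs. Their presence in it was therefore fixed by that choice and is not a result. Each NR4A window held 4 half-sites and no CArG box. Windows were found for 10962 of the 16209 genes tested. Both strands were searched, and half-sites include those inside a full CRE (TGACGTCA). At least 1 CArG box stood in 3.34% of the 628 genes with a window that were at least 2-fold higher with BDNF, in 1.29% of the 311 such genes on the KCl side and in 1.66% of all tested genes. A half-site stood in 37.7%, 25.7% and 34.9% of these groups, and 2 or more half-sites in 10.8%, 9.97% and 10.3%. An EGR site (GCGNGGGCG) stood in 12.7%, 7.07% and 12.7%, and an AP-1 site (TGANTCA) in 8.12%, 9.32% and 5.77%. Among all 32851 windows, the shares were 1.63% for the CArG box, 20.8% for the half-site, 5.55% for the EGR site and 7.81% for the AP-1 site. These last shares count single windows of any gene, whereas a gene in the groups counted if any of its windows matched. The shares of windows and of genes are therefore not comparable. A match describes the letters in the window and is not a measured binding site.

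EGR factors are zinc-finger activators induced through the MAP kinase pathway, and the NAB proteins are corepressors that bind them. All 6 tested members (Egr1 to Egr4, Nab1 and Nab2) were higher with BDNF, each by at least 2-fold, with a median difference of 3.15. Egr2 (chr10:67535475-67542188) measured 3868 and 3913 normalised read counts in BDNF libraries A and B, 253 and 209 in the KCl libraries and 8.30 to 15.6 in the controls. Both stimuli lay far above the controls, and the BDNF libraries lay 16.9-fold above the KCl libraries on average (4.08 ± 0.22 SE, limma adjusted p = 2.85e-12). Egr1 measured 10503 and 10568 with BDNF, 1590 and 1838 with KCl and 194 to 247 in controls (2.62 ± 0.11 SE). Egr3 measured 967 and 1059 against 102 and 63.1, with controls at 17.1 to 30.7. Egr4 was the least reproducible member, with 1238 and 1401 normalised read counts under BDNF against 305 and 140 under KCl, and still differed (2.66 ± 0.60 SE, limma adjusted p = 0.00332). Nab2 parted the stimuli in direction, with 844 and 814 normalised read counts under BDNF, 60.5 and 39.6 under KCl and 61.7 to 85.0 in controls. It was above controls with BDNF (3.54) and below them with KCl (-0.51). Nab1 was above controls with both (2.01 and 0.73).

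The NR4A orphan nuclear receptors are transcription factors that act without an identified ligand. They showed the opposite order, with all 3 members at least 2-fold higher with KCl and a median difference of -3.20. Nr4a1 (chr15:101254269-101274795) measured 657 and 704 with BDNF, 7748 and 6378 with KCl and 50.9 to 64.4 in controls, a 10.4-fold excess with KCl (-3.37 ± 0.14 SE, limma adjusted p = 4.09e-14). Nr4a2 measured 560 and 587 against 5703 and 4874, with controls at 202 to 228. Nr4a3 measured 2091 and 2185 against 10756 and 7814, with controls at 908 to 1054. BDNF thus raised all 3 above controls (3.57, 1.44 and 1.10), and KCl raised them further (6.94, 4.63 and 3.20). Npas4, a bHLH-PAS factor known for its dependence on calcium entry, belonged with them. It measured 362 and 377 with BDNF, 5258 and 2487 with KCl and 60.1 to 114 in controls (-3.29 ± 0.34 SE, limma adjusted p = 4.77e-06). The KCl libraries of Npas4 lay far apart from each other, yet both lay above the BDNF libraries. Among its partners, Arnt2 was slightly higher with KCl (-0.35), while Arnt measured 511 and 509 against 268 and 240 and was below controls in the KCl group (-0.88).

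**Figure D1:**
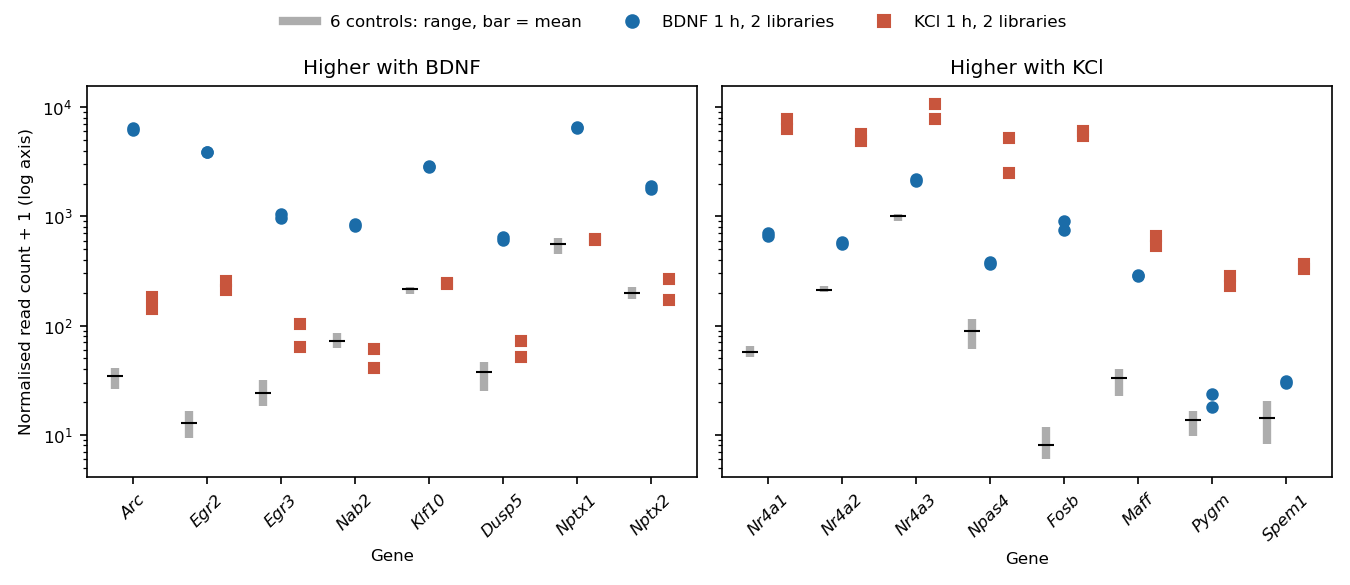
Normalised read count + 1 on a log axis for 8 genes higher with BDNF (left) and 8 higher with KCl (right). Circles are the 2 BDNF libraries, squares the 2 KCl libraries, and grey bars the range of the 6 controls with a tick at the mean. BDNF and KCl libraries lay apart in all 16 genes, and Nab2 in KCl lay below the control range.

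The AP-1 family, dimers of FOS, JUN, MAF and ATF-type proteins, was split. Of 12 tested members, 6 were higher with BDNF (50%) and 5 with KCl (41.7%), beside 24.6% and 18.2% of all genes tested. Fosb measured 754 and 901 with BDNF, 5421 and 6088 with KCl and 4.93 to 10.8 in controls (-2.80 ± 0.27 SE). Fos measured 1715 and 1738 against 5742 and 5274, with controls at 25.1 to 43.3 (-1.67 ± 0.18 SE). Maff (-1.06), Junb (-0.82) and Mafk (-0.61) were also higher with KCl. Fosl1 (1.19), Atf3 (1.19), Jun (1.02), Jdp2 (0.81), Jund (0.71) and Fosl2 (0.63) were higher with BDNF. Jun measured 2904 and 3184 with BDNF, 1466 and 1526 with KCl and 1096 to 1255 in controls, above controls with both stimuli. Mafg (-0.11) did not pass the threshold, and Fosl2 lost its call without KCl library B (0.24) and with only the 6 libraries of 1 h (0.63).

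Among Krüppel-like factors, zinc-finger regulators of growth and differentiation, 10 of 14 were higher with BDNF and 2 with KCl (median 0.96). Klf10, an early response gene, measured 2880 and 2812 with BDNF and 244 and 242 with KCl, and the KCl libraries did not differ from controls by the test (193 to 225; difference 0.18). Klf2 (1.84), Klf16 (1.68), Klf9 (1.59) and Klf5 (1.11) followed. Klf4 went the other way with 109 and 111 against 369 and 519 (-1.98), as did Klf11 (-0.40), which was below controls with both stimuli. The CREB family with its CRTC coactivators and SIK kinases was mixed, with 5 of 14 higher with BDNF (35.7%) and 2 with KCl (14.3%). All genes tested had shares of 24.6% and 18.2%, to be set beside each count in this paragraph. Crem, whose short isoform ICER represses cAMP-driven genes, measured 208 and 180 with BDNF and 605 and 449 with KCl (-1.42). Sik1, a kinase that keeps CRTC out of the nucleus, was higher with KCl (-0.77) and Sik2 with BDNF (1.09). Clock genes were divided too, 7 higher with BDNF and 8 with KCl of 19. Per2 measured 1235 and 1317 against 335 and 276, and with Bhlhe40 (1.96) and Bhlhe41 (2.36) formed the BDNF side. Nfil3 (-1.56) and Nr1d1 (-1.48) led the KCl side, and Per1 (0.12) did not pass the threshold.

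Synaptic effectors of activity favoured BDNF, with 13 of 19 higher with BDNF (68.4%), 3 with KCl (15.8%) and a median of 0.71. The shares of all genes tested were 24.6% and 18.2%. Arc (chr15:74669083-74672570), which drives internalisation of AMPA receptors, had the largest difference among protein-coding genes with a mean of at least 100 normalised read counts. It measured 6244 and 6474 with BDNF, 182 and 141 with KCl and 25.1 to 39.4 in controls, a 39.4-fold excess (5.30 ± 0.19 SE, limma adjusted p = 5.96e-15). The neuronal pentraxins, secreted proteins that cluster AMPA receptors, differed in kind. Nptx1 measured 6396 and 6655 with BDNF and 625 and 603 with KCl, and Nptx2 1785 and 1900 against 267 and 171. The KCl libraries of neither gene differed from controls by the test (0.14 and 0.11). Homer1, a postsynaptic scaffold, was above controls with both stimuli (3.62 and 2.40) and measured 11003 and 11135 with BDNF and 5433 and 4155 with KCl. Ptgs2 (-1.18), Rnd1 (-0.68) and Lrrtm2 (-0.39) were higher with KCl. The call for Ptgs2 was lost without any 1 of the 4 libraries (-1.38 to -0.98), and that for Lrrtm2 without BDNF library A (-0.31) or KCl library A (-0.22).

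Feedback inhibitors of receptor tyrosine kinases were largely on the BDNF side. Of 17 Sprouty, Spred and related genes tested, 11 were higher with BDNF (64.7%) and 2 with KCl (11.8%), with a median of 0.56. The shares of all genes tested, 24.6% and 18.2%, stand beside this and each further count in this paragraph. Spry4 measured 1241 and 1210 with BDNF, 324 and 150 with KCl and 118 to 153 in controls (2.47 ± 0.23 SE). Spred3 (1.47), Spred2 (1.43) and Spred1 (1.12) followed, and Cblb (-0.30) and Rasa1 (-0.15) were higher with KCl. The call for Rasa1 was lost under 8 of 10 alternatives, with and without a library left out. That for Cblb was lost under 2, each with 1 library left out. The MAP kinase phosphatases were divided by member, 4 of 10 on each side. Dusp5, which acts on ERK in the nucleus, measured 646 and 602 against 71.6 and 50.3 (3.36), and Dusp14 (2.13), Dusp4 (1.85) and Dusp6 (1.02) were also higher with BDNF. Dusp10 (-0.94), Dusp7 (-0.67), Dusp16 (-0.58) and Dusp8 (-0.47) were higher with KCl, and Dusp1 (-0.16) did not pass the threshold although it was above controls with both stimuli. Dusp10 and Dusp16 act mainly on JNK and p38, while Dusp7 acts on ERK. Of 15 Gadd45 and Ier type early genes, 9 were higher with BDNF, among them Ier5l (2.94), Sgk1 (2.66), Pim1 (1.95) and Gadd45b (1.47), and 2 with KCl, Ier3 (-0.60) and Csrnp3 (-0.55). Of 19 cytoskeletal targets of SRF and its MRTF cofactors, 11 were higher with BDNF, with Filip1l (1.64), Vcl (1.61), Fhl2 (1.55) and Zyx (1.47) foremost, and the other 8 did not pass the threshold. Vcl, which encodes the adhesion protein vinculin, measured 914 and 958 with BDNF, 262 and 358 with KCl and 174 to 306 in controls. The smooth muscle members Acta2 (-0.54), Myl9 (-0.39) and Tagln (-0.20) did not pass the threshold.

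**Figure D2:**
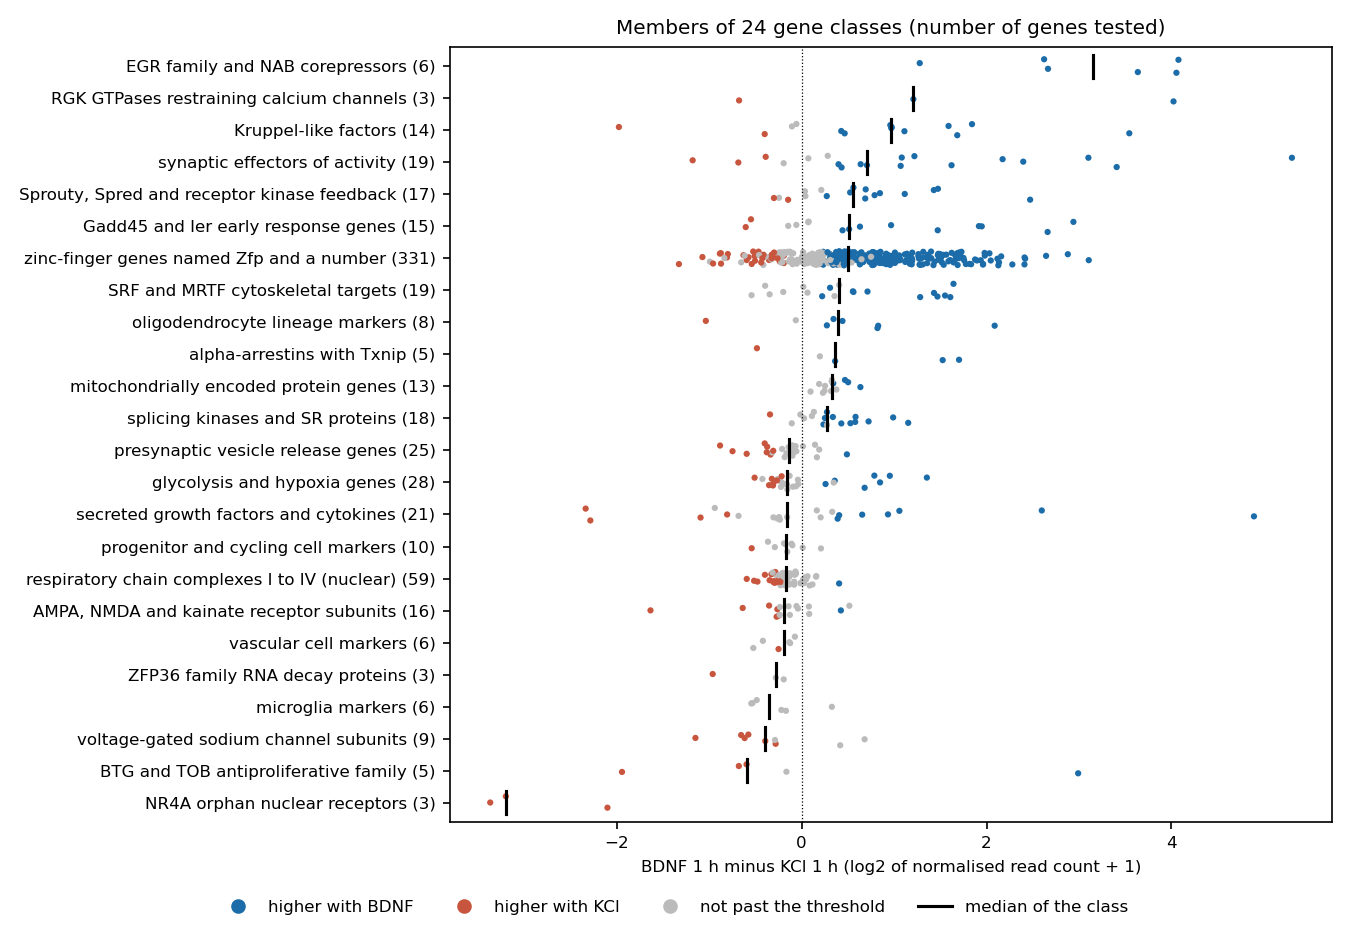
Difference BDNF minus KCl at 1 h (log2 of normalised read count + 1) of each tested member of 24 gene classes, the 12 with the highest and the 12 with the lowest class median among those with at least 3 tested members. Blue and red points passed the threshold in favour of BDNF and KCl, grey points did not, and black bars are class medians, from 3.15 for EGR and NAB genes to -3.20 for NR4A genes.

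Several families held one member far from the rest. The RGK GTPases, which restrain voltage-gated calcium channels, were represented by Rrad with 411 and 428 under BDNF against 22.2 and 27.8 under KCl (4.02), by Rem2 (1.21) and, in the other direction, by Gem at 60.8 and 52.7 against 106 and 78.1 (-0.68). In the BTG and TOB family of antiproliferative proteins, Btg2 measured 1574 and 1648 with BDNF, 233 and 174 with KCl and 576 to 795 in controls, above controls with BDNF (1.24) and below them with KCl (-1.75). Tob2, by contrast, measured 336 and 360 with BDNF and 1222 and 1470 with KCl (-1.94), and Tob1 (-0.68) and Btg1 (-0.60) were also higher with KCl. Of 21 secreted growth factors and cytokines tested, 7 were higher with BDNF (33.3%) and 4 with KCl (19.0%), near the 24.6% and 18.2% of all genes. Areg, an EGF receptor ligand, measured 120 and 105 with BDNF and 2.47 and 3.21 with KCl, and Vgf, a granin family precursor, 17183 and 17977 against 2792 and 1526 (3.09). Pcsk1, the convertase that cleaves such precursors, was higher with KCl at 478 and 262 against 82.1 and 67.9 (-2.23). Bdnf itself measured 158 and 172 with BDNF, 620 and 356 with KCl and 38.5 to 65.1 in controls (-1.51). Pdgfb (2.60) and Vegfa (1.06) were higher with BDNF, and Fgf7 (-2.34) and Gdf15 (-2.29) with KCl. Fgf7 was low, with a mean under 50 normalised read counts over the 4 libraries. The histamine receptor gene Hrh1 measured 246 and 221 with BDNF, while both KCl libraries (mean 22.3) lay inside the control range of 17.1 to 32.3.

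The alpha-arrestins, adaptors that direct membrane proteins to endosomes and in the case of Txnip limit glucose uptake, were below controls in 5 of 5 cases with BDNF and 4 with KCl. Of all genes tested, 19% were below controls with BDNF and 28.2% with KCl. Against each other, 3 alpha-arrestins were higher with BDNF and 1, Arrdc1 (-0.48), with KCl, beside 24.6% and 18.2% of all genes tested. Txnip measured 199 and 179 with BDNF, 61.7 and 68.4 with KCl and 519 to 663 in controls (1.53 ± 0.20 SE). Arrdc3 measured 2400 and 2291 with BDNF, 694 and 746 with KCl and 3113 to 3738 in controls (1.70 ± 0.09 SE). Both stimuli thus left Txnip and Arrdc3 below every control, with KCl lowest.

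The Zfp genes, most of which encode C2H2 zinc-finger DNA-binding proteins, were the class with the most members. Of 331 tested, 207 were higher with BDNF (62.5%) and 29 with KCl (8.76%), beside 24.6% and 18.2% of all genes. Of the 331, 87 and 2 were at least 2-fold apart, beside 5.55% and 2.78% of all genes. The median difference was 0.51. Against controls, the median was -0.29 with BDNF and -0.78 with KCl. With KCl 256 were below controls and 21 above, and with BDNF 173 were below and 32 above. Among all genes tested, 28.2% were below controls with KCl and 19% with BDNF. Zfp712 measured 123 and 101 with BDNF, 13.6 and 10.7 with KCl and 167 to 202 in controls (3.11 ± 0.16 SE, limma adjusted p = 2.48e-12). Zfp160 measured 642 and 597 with BDNF, 110 and 87.7 with KCl and 628 to 722 in controls, so that only its KCl libraries lay far below the controls. Zfp184 was the largest exception, with 225 and 243 under BDNF against 574 and 602 under KCl (-1.33). Many Zfp genes share sequence with near copies, and reads of single members are therefore uncertain. Spaca6 (chr17:17827158-17843009), a sperm membrane protein gene, was also far below controls with KCl, but was above them with BDNF (0.48). It measured 453 and 537 with BDNF, 35.8 and 35.3 with KCl and 338 to 372 in controls (3.76). Among SR proteins and their kinases, which set splice site choice, 11 of 18 were higher with BDNF and 1 with KCl (median 0.27). Srsf5 measured 6145 and 5839 with BDNF, 2954 and 2456 with KCl and 4427 to 4805 in controls, above controls with BDNF (0.37) and below with KCl (-0.78), and Srsf7 differed likewise (0.47 and -0.52).

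Lists of excitability and metabolism had medians nearer to 0. Over all genes tested, 42.8% were called, 24.6% higher with BDNF and 18.2% higher with KCl. Of 9 sodium channel subunit genes, 6 were higher with KCl and 3 did not pass the threshold (median -0.39). Scn1a measured 216 and 224 with BDNF, 483 and 494 with KCl and 329 to 422 in controls, below controls with BDNF (-0.77) and above them with KCl (0.38). Scn2a (-0.65) and Scn2b (-0.62) followed. Potassium channel subunits were divided, with 11 of 35 higher with BDNF, led by Kcna1 (2.65), Kcns2 (1.51) and Kcna4 (1.24), and 9 with KCl (median 0.13). Kcna1, which encodes a subunit of axonal channels, measured 1930 and 2105 with BDNF, 367 and 280 with KCl and 170 to 209 in controls. Of 21 calcium channel subunit genes 8 were higher with KCl, led by Cacna1a (-0.55), and 2 with BDNF, Cacnb1 (0.87) and Cacng5 (0.39). Of 22 CaM kinase and calcineurin genes 8 were higher with KCl and 3 with BDNF. Of 16 ionotropic glutamate receptor genes 6 were higher with KCl, among them Grin2c (-1.63) and Grik1 (-0.64), and 1 with BDNF, Grin2b (0.42). Grin2c was low, with a mean under 50 normalised read counts over the 4 libraries. GABA-A receptor genes were higher with KCl in 4 of 12 cases (33.3% called), presynaptic release genes in 8 of 25 with 1 higher with BDNF (36% called), and axon guidance genes in 19 of 64 with 9 higher with BDNF. Cytosolic ribosomal protein genes were higher with KCl in 22 of 80 and with BDNF in 1 (median -0.14), and nuclear genes of respiratory complexes I to IV in 16 of 59 and 1 (median -0.17). These sets were called less often (28.7% and 28.8%) than the 42.8% of all genes. The 13 mitochondrially encoded genes had a median of 0.33 and 4 were higher with BDNF. Ribosomal protein genes have many processed copies, and their single values are uncertain. Proteasome subunits were higher with BDNF in 7 and with KCl in 2 of 35 cases (25.7% called). Counts were 7 and 7 of 28 for glycolysis, 8 and 5 of 22 for amino acid transport and the ATF4 response and 6 and 4 of 23 for cholesterol synthesis genes, the last with medians of 0.83 and 0.88 above controls for BDNF and KCl.

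The shares on either side varied with gene length, though not in 1 direction throughout. Among the 888 protein-coding genes spanning more than 200 kb, 34.8% were higher with KCl and 7.55% with BDNF. Among the 3621 genes of 20 to 50 kb, 15.3% were higher with KCl and 31.9% with BDNF. Among the 1451 genes of up to 5 kb the shares were 20.8% and 22.6%. The median difference was -0.04 in the shortest genes, 0.08 at 20 to 50 kb and -0.19 in the longest. Against controls, the longest genes had a median of -0.06 with BDNF and 0.13 with KCl. Long genes in neurons include many ion channel, adhesion and axon guidance genes, and their overlap with the preceding classes was not measured. Genes at least 2-fold apart on either side were shorter, with a median span of 16.8 kb for BDNF and 15.9 kb for KCl against 25.6 kb for all protein-coding genes.

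**Figure D3:**
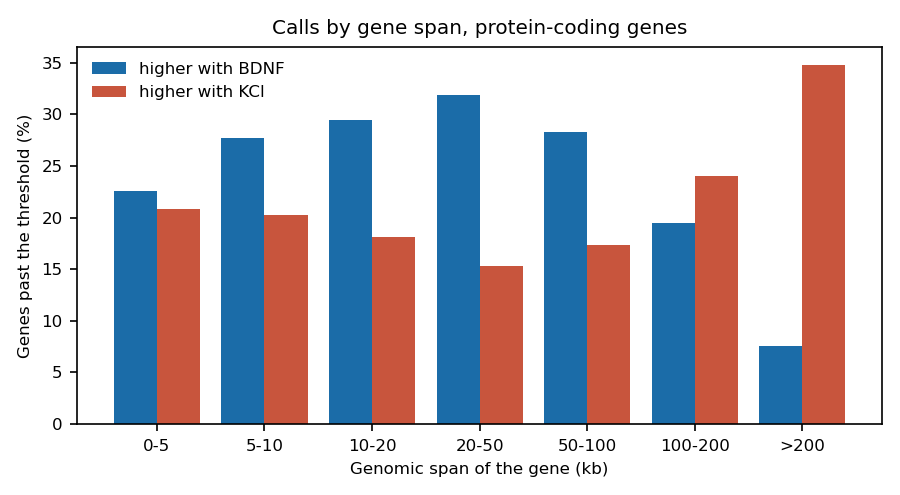
Percent of protein-coding genes past the threshold in favour of BDNF (blue) or KCl (red) at 1 h, by genomic span of the gene in kb. The bars cross between 50 and 200 kb, and above 200 kb they stand at 7.55% for BDNF and 34.8% for KCl.

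The genes at least 2-fold higher with KCl were also described by their position in the genome. This property was looked at after the values of the KCl side had been seen, since genes known from other tissues stood among the largest differences. Pygm (muscle glycogen phosphorylase, chr19:6384399-6398459) measured 22.8 and 16.8 with BDNF, 228 and 283 with KCl and 8.81 to 15.4 in controls. Spem1, a gene of sperm maturation, measured 28.9 and 29.8 against 331 and 367, and Cldn15, an epithelial claudin, 30.4 and 16.8 against 242 and 198. Each of these starts shortly after the end of another gene on the same strand. Spem1 starts 0.94 kb after Nlgn2, Cldn15 0.38 kb after Fis1, Fbxl22 0.04 kb after Usp3, Lrrn4cl 2.09 kb after Bscl2 and Pygm 6.37 kb after Sf1, as annotated by GENCODE M21. By the same rule Nr4a1, Npas4, Fosb and Nr4a2 lie 40.6 kb or more from the nearest such neighbour.

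Across the 376 protein-coding genes at least 2-fold higher with KCl, 134 (35.6%) start within 10 kb after the end of a same-strand protein-coding gene that has at least 100 normalised read counts in controls. The share was 10.4% of the 741 genes at least 2-fold higher with BDNF, 14.7% of the 7254 genes not called and 14.7% of all 13450. The distance to that neighbour had a median of 25.5 kb on the KCl side, 127 kb on the BDNF side and 106 kb over all. Over all control levels, other arrangements were less frequent on the KCl side than among all protein-coding genes. A same-strand neighbour within 10 kb after the end was present in 10.6% of the KCl genes and 13.7% of all genes, and an opposite-strand neighbour before the start in 8.24% and 12.5%. KCl genes were also low in controls, with a median of 23.7 normalised read counts against 360 over all protein-coding genes. Among genes with fewer than 50 in controls, the shares with a same-strand neighbour before the start were 42.0% of 257 on the KCl side, 6.29% of 175 on the BDNF side and 13.1% of 1243 not called. The 134 genes had a median difference from controls of 1.60 with KCl and -0.09 with BDNF, while the neighbours before them had a median of -0.02 with KCl. A promoter peak of accessible chromatin was present in 32.1% of the 134, in 58.7% of the other 242 KCl genes and in 89.0% of all protein-coding genes. Such peaks were rarer in genes with fewer than 50 normalised read counts in controls. There they were present in 33.9% on the KCl side, 64.6% on the BDNF side and 56.1% of genes not called. In the later libraries, the share among genes at least 2-fold higher with KCl than with BDNF was 11.3% of 690 at 6 h and 6.90% of 565 at 10 h. Counts per gene do not show where a transcript began, and the library kit is not stated to keep strand.

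**Figure D4:**
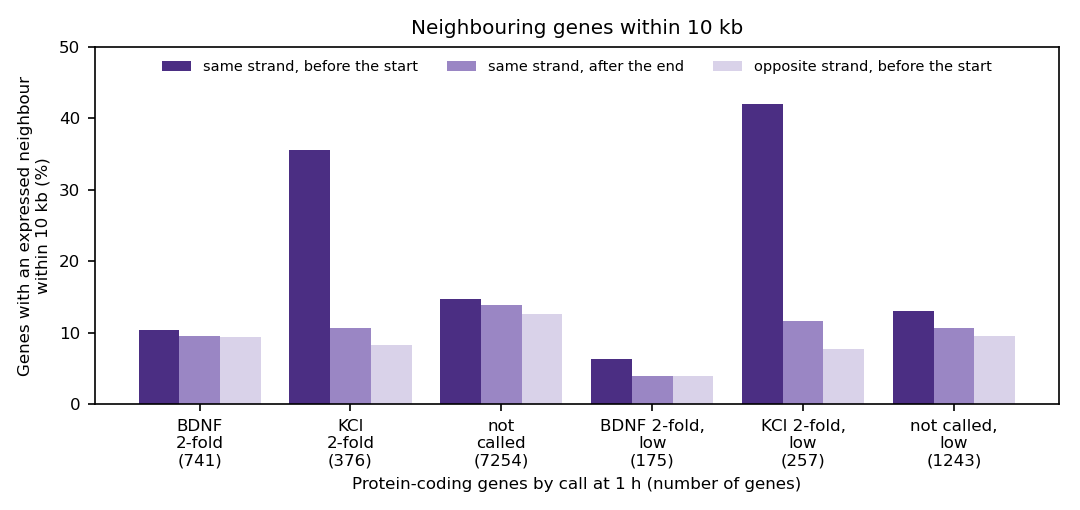
Percent of protein-coding genes with a neighbour of at least 100 normalised read counts in controls within 10 kb, for genes at least 2-fold higher with BDNF or KCl and genes not called, over all control levels (left 3 groups) and below 50 normalised read counts in controls (right 3 groups). The bar for same-strand neighbours before the start stands at 35.6% and 42.0% on the KCl side and at 6.29% to 14.7% in the other groups.

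Oligodendrocyte lineage markers were lower with KCl. Of 8 tested, 6 were higher with BDNF (75%) and 1, Mog (-1.04), with KCl, beside 24.6% and 18.2% of all genes. Sox10 measured 77.6 and 109 with BDNF, 18.5 and 23.5 with KCl and 80.9 to 130 in controls, and Olig2 1905 and 2000 against 1261 and 958. The summed level of the 9 listed markers was 6586 to 6921 with BDNF, 4635 to 5152 with KCl and 6163 to 6621 in controls, with Mag at 0 in some library. Its part in the differences of other classes was not tested. Of 8 astrocyte markers 1 was higher with BDNF, and of 6 vascular and 10 progenitor markers 1 each was higher with KCl. Summed vascular markers ran from 4269 to 4462 with BDNF and 4701 to 5436 with KCl, and summed progenitor markers from 15110 to 15358 and 15962 to 18778, both without overlap between the stimuli. The controls ranged from 3638 to 4992 and from 12498 to 18606. The part of these markers in other results was not tested. Microglia markers summed to 151 to 193 with BDNF, 188 to 262 with KCl and 144 to 222 in controls.

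Chromatin at promoters was compared at 1 h in separate libraries of the same design. The columns of these libraries carry no replicate label. Their letters A and B follow column order only and do not tie them to the RNA libraries of the same letter. Of 14306 promoter peaks, 691 were more accessible with BDNF (4.83%) and 663 with KCl (4.63%). Genes at least 2-fold higher with BDNF had a promoter peak in 697 cases, of which 39 had a peak higher with BDNF (5.60%) and 33 higher with KCl (4.73%). Genes at least 2-fold higher with KCl had one in 215 cases, of which 18 had a peak higher with KCl (8.37%) and 9 higher with BDNF (4.19%). Over all 12530 tested genes with a promoter peak the shares were 4.27% for BDNF and 4.45% for KCl. These counts changed with single libraries. Without KCl library B, 188 and 171 promoter peaks passed the threshold, and 1 of the 215 genes had a peak higher with KCl and 2 a peak higher with BDNF. Without either BDNF library, equal numbers of these 215 genes had peaks on both sides (6 and 6, or 5 and 5). Of 219 named genes with an RNA call and a promoter peak, 32 had a called peak, 20 in the direction of the RNA and 12 against it. The peak at Arc (chr15:74672355-74672871) was higher with BDNF (0.70, edgeR adjusted p = 0.0253), and the one at Nr4a1 (chr15:101266257-101267037) higher with KCl (-0.58, edgeR adjusted p = 0.0956). The peaks at Areg (-0.90, edgeR adjusted p = 0.00534), Rgs4 (-0.71, edgeR adjusted p = 0.0132) and Btg2 (-0.43, edgeR adjusted p = 0.0660) were higher with KCl, although the RNA of these 3 genes was higher with BDNF. The peak at Egr2 differed by -0.06 and did not pass the threshold.

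The sets were followed in the 6 and 10 h libraries, which the 1 h comparison did not use. Of the 900 genes at least 2-fold higher with BDNF at 1 h, 347 remained on the BDNF side at 6 h and 135 were on the KCl side. At 10 h these numbers were 260 and 118. Of the 451 genes of the KCl side, 213 remained on it at 6 h and 50 had moved to the BDNF side. At 10 h the numbers were 152 and 56. Over all genes tested, the shares on the BDNF and KCl sides were 29.6% and 27.8% at 6 h, then 23.1% and 21.8% at 10 h. Arc (3.18 and 3.12), Egr1 (3.48 and 3.64) and Egr2 (3.96 and 4.01) were still higher with BDNF at 6 and 10 h, whereas Egr3 (-0.39 and 0.10) and Egr4 (0.43 and 0.73) did not pass the threshold. Nr4a1 (-4.65 and -4.20), Npas4 (-4.80 and -4.19), Fosb (-5.50 and -3.34) and Bdnf (-3.97 and -3.62) were higher with KCl at both times. Of 252 named genes called at 1 h, 61 were called in the opposite direction at 6 or 10 h, 39 of them higher with BDNF at 1 h and 22 higher with KCl. Spaca6, Btg2 and Rem2 were higher with KCl at 6 and 10 h, the reverse of 1 h, with Rem2 at -2.87 and -2.46.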

How the data were processed

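RNA was selected with oligo-dT and sequenced on a NextSeq 500. Per the labels and methods, TopHat2 aligned the reads to mm10. The program that counted them is not given in the sources used here. As deposited, each RNA value is a signal, the read count of a gene after division by its library's DESeq2 size factor. All values (100%) were whole reads within a tolerance of 0.01 of the value of 1 read, which gave the depths. Gene names and positions came from GENCODE M21 (26162 of 26709 identifiers matched). The deposited ATAC values are counts of reads per peak, in a table of 58177 peaks that the authors called with MACS2 and joined with DiffBind. Tables of the authors' own comparisons were not used.

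The main test was limma 3.58.1 (R 4.3.3) on log2(value + 1), with the 18 RNA libraries in 7 groups (controls of 3 times pooled), a mean-variance trend and robust moderation. The 16209 genes with a mean of at least 10 over the 18 libraries were tested at an adjusted p below 0.1. Promoter peaks (1000 bp upstream to 100 bp downstream of a start) were tested with the quasi-likelihood test of edgeR 4.0.16 with LOESS offsets. Scripts were tested on simulated data.

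Genes were named by rule: the 10 largest differences in each direction among protein-coding genes with a mean of at least 100 over the 4 libraries; up to 3 per direction in each of 53 lists; 20 set genes; and all members of lists of 6 or fewer. The 10 largest differences were taken only from called genes whose BDNF and KCl libraries do not overlap. The genes taken from lists by size of difference had a mean of at least 50 over the 4 libraries. Other list members, some of them below that mean, are named only with their difference. The lists and the neighbour search were chosen with earlier results of these data known. The methods call both libraries of a group biological replicates. Nothing says which cultures they came from, so p-values measure only the spread between these samples.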

Additional observations from a re-analysis of the deposited data

Results flagged for a closer look

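In 10 of 263 named genes, 1 of the 6 controls lay far from the others (Dixon's criterion). Chance alone marks about 1 in 20 such groups. The control of 10 h, library A, was low for Klf10 (193), Bdnf (38.5), Txnip (519), Pcdhgc4 (11605) and mt-Nd6 (9060), and library B of 10 h was low for Fbxl22 (14.9). The controls of 1 h stood out for Crtc2 (high in A, 486), Crem (high in B, 144) and Zfp575 (low in B, 93.2), and Dusp6 was high in library B of 6 h (288). These values enter the control ranges and not the direct difference between the stimuli.

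Of 34 genes, those with the largest differences and those listed by name, there were 4 in which the libraries of BDNF and KCl lay apart at 1 h and apart in the opposite order later. Spaca6 was higher with BDNF at 1 h and differed by -0.73 at 6 h and -0.58 at 10 h. Btg2 differed by -0.54 and -0.50 at these times. Nptx2 differed by -0.30 at 6 h, which did not pass the threshold, and by -0.61 at 10 h. Lrrn4cl was higher with KCl at 1 h and differed by 0.94 at 10 h. Over all 252 named genes called at 1 h, 61 were called in the opposite direction later, 41 of them at both times. Of the 61, 39 were higher with BDNF at 1 h and 22 with KCl. Over all genes tested, 29.6% were on the BDNF side and 27.8% on the KCl side at 6 h, then 23.1% and 21.8% at 10 h. Among the 41 were Rem2 (-2.87 and -2.46), Dusp14 (-1.44 and -0.50), Rgs4 (-0.86 and -1.39), Sgk1 (-0.80 and -0.67), Nab1 (-0.62 and -0.71) and Per2 (-0.44 and -0.34), each higher with BDNF at 1 h. The change of the difference between times was not tested.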

How the results depend on the processing

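The count of genes differing between the stimuli was within 1.5 times of 6936 under another pseudocount, filter, scaling, tool or set of libraries, and the genes called in both fits had the same direction in each of them. On the recovered whole reads, edgeR called 6793 genes and DESeq2 6158. At an adjusted p below 0.01, 4143 genes differed, of which 1451 were higher with KCl. Without 1 library of 1 h, 5179 to 6052 genes differed, 3191 to 3691 higher with BDNF and 1955 to 2361 higher with KCl, lowest for KCl without BDNF library A. The number at least 2-fold higher with KCl depended on the filter, with 451 at a mean of 10, 139 at a mean of 50 and 1416 with no filter, since many of these genes have low counts.

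Counts against controls were 6546 with BDNF and 8863 with KCl. They were 3611 and 5906 at an adjusted p below 0.01, and 4106 with BDNF when only the 6 libraries of 1 h were used. Without 1 library, the BDNF count ran from 3926 (without BDNF library A) to 6599. The 7287 genes at 10 h became 4161 at 0.01.

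Promoter peaks numbered 1354 (691 and 663). At 0.01 there were 321 (174 and 147), and with limma 888 (437 higher with BDNF). Each library left out lowered the total by more than 1.5 times, to between 359 (without KCl library B) and 842 (without KCl library A), with 188 to 416 higher with BDNF and 171 to 426 higher with KCl. The cause was not tested beyond the settings themselves.

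Of 252 named genes with a call, 207 were called the same way under each alternative, 0 changed direction, and 45 lost the call in at least 1, with 10 of them doing so outside the fits that leave out a library. Calls were also lost for Ier3 with DESeq2 or without BDNF library A, BDNF library B or KCl library B (-0.69 to -0.50), for Gem without BDNF library B (-0.57) or KCl library A (-0.46), for Cblb without BDNF library A (-0.26) or KCl library A (-0.27) and for Klf11 without BDNF library A (-0.24). Among genes with no call, leaving out 1 library gave -0.377 to 0.0610 for Dusp1, -0.0678 to 0.312 for Per1 and -0.481 to 0.0842 for Tagln. Of these, Dusp1 was called without KCl library B (-0.377, limma adjusted p = 0.0202) and Per1 without KCl library A (0.312, limma adjusted p = 0.0625). Of 530 list medians under alternatives, 481 moved by less than the spread between replicates, 45 moved further and 4 changed sign. Without 1 library, the medians of these 4 ran from -0.101 to 0.0194 for activins, -0.147 to 0.00747 for clustered protocadherins, -0.00299 to 0.0797 for the ATF4 response and -0.0186 to 0.385 for neuron markers. TMM scaling moved the median difference of all genes by -0.02. The share of genes following a same-strand neighbour among those at least 2-fold higher with KCl, an alternative added after seeing the data, was 24.2% at a mean of 50 and 32.2% to 38.2% otherwise.

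Samples share only a letter, not a stated pairing. With the column letter as a replicate block, 7107 genes differed. Letter deviations correlated at 0.07 between BDNF and KCl at 1 h, and above 0.1 in 13 of 36 pairs of groups.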
